A study of Mus musculus with 6 samples.

Results

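The genes described here are 10 genes of cone photoreceptors: the cone arrestin Arr3, the opsins Opn1sw and Opn1mw, the transducin subunits Gnat2 and Gngt2, the phosphodiesterase subunits Pde6c and Pde6h, the channel subunits Cnga3 and Cngb3, and the thyroid hormone receptor Thrb. They were taken by symbol, out of 19057 genes with a named probe on the array, and every probe annotated to one of them was kept, which gave 16 probes of 45281. The group was chosen by the difference in normalized signal of Arr3 between the genotypes, already known from these arrays, so that difference is a description and supports nothing. The arrays held retinal RNA from 3 mice labelled Lrp5-/- (strain B6.129P2-Lrp5tm1Dgen/J, a targeted allele carried in all cells) and 3 WT mice (C57BL/6J), all at postnatal day 8, with 1 mouse per array and no treatment. Each genotype came from a stock of its own, so the effect of the allele and other differences between the stocks cannot be told apart. The signal of each probe is on a linear scale after rank invariant normalization between arrays, with the background still in it.

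Cones are the photoreceptors of daylight and colour vision. In a cone, light is absorbed by an opsin, which activates the G protein transducin; transducin releases phosphodiesterase 6 from its inhibitory subunit, cyclic GMP falls, and the cyclic nucleotide-gated channel of the outer segment closes. Cone arrestin then binds the phosphorylated opsin and ends the response. Mouse cones express a short-wavelength opsin, a middle-wavelength opsin or both, and the thyroid hormone receptor beta is needed for the middle-wavelength opsin. In the second postnatal week of the mouse, outer segments are still growing, so the transcripts of phototransduction are measured here while photoreceptors mature.

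The sequences before the starts of Arr3 and the opsins are shown because Arr3 and Opn1mw both lie on the X chromosome and had unlike values on the same arrays. Capitals mark TAATC, the core of the sites bound by the photoreceptor homeodomain proteins Crx and Otx2, AGGTCA, the half-site of nuclear receptors such as those of thyroid hormone, and TATAAA, the TATA box, on either strand. Each line gives the 250 bases before the start of the gene from RefSeq (GRCm38.p6), 5′ to 3′ along the strand of the gene, which is plus at chrX:100605247-100605496 for Arr3, plus at chrX:74127216-74127465 for Opn1mw and minus at chr6:29380514-29380763 for Opn1sw.
Arr3: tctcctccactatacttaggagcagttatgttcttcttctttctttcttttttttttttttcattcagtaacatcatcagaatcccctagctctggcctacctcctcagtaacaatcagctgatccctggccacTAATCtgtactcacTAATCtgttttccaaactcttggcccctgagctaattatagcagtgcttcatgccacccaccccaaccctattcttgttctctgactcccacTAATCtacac
Opn1mw: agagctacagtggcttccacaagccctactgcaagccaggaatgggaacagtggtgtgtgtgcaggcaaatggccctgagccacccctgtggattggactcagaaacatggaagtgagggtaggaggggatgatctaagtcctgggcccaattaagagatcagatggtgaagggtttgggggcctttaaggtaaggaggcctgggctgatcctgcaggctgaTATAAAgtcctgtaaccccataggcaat
Opn1sw: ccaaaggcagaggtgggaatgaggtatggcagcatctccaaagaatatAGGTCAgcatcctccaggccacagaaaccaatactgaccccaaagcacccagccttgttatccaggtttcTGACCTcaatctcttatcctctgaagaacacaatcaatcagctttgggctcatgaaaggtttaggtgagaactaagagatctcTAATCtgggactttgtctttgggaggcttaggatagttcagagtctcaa

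Of the 10 genes, 7 had a promoter in this table. TAATC occurred 3 times before Arr3, with its first base 116, 102 and 10 bases before the start, once before Opn1sw, and not before Opn1mw. Of 32851 promoter sequences of this length, 19.8% held TAATC on either strand and 0.554% held it 3 times or more. AGGTCA occurred 2 times before Opn1sw, 202 bases before the start and, on the other strand, at 132 bases, against 14.0% of all promoters with at least 1 match. TATAAA occurred before Opn1mw only among these 3, at 28 bases before the start, against 12.4% of all promoters. Among the other members with a promoter, TATAAA occurred before Cnga3 and Thrb, TAATC before Gnat2 and Thrb, and AGGTCA before Thrb. Pde6h had no match. The marked letters do not overlap. The longer TAATCC was searched first and had no match before Arr3 or either opsin, on either strand, against 6.25% of all promoters. It had 1 match before Gnat2 and 1 before Thrb. TAATC was taken only after the letters before Arr3 had been seen, so its count there is no support for anything. A match is a run of letters and not a measured site.

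Most of the cone genes were above background in these retinas. A probe counted as expressed when its detection p, which compares it with negative control beads, was under 0.05 on at least 3 of the 6 arrays. By this rule 12 of the 16 probes were expressed, for 9 of the 10 genes, and 10 of these 12 were detected on all 6 arrays. The 4 other probes were detected on no array. They are the probe of Thrb and a dimmer probe each of Opn1sw, Pde6c and Cnga3. Closest outside the rule were the Cnga3 probe ILMN_1214994, with a lowest detection p of 0.0962, and the Thrb probe, with 0.0994. Closest inside were Cngb3 and Cnga3 (ILMN_1237058), each detected on 5 arrays and not on WT replicate 1, where the detection p was 0.0513 and 0.337.

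The targeted gene did not check the labels. The 1 probe of Lrp5 that passed the rule (ILMN_2942097) averaged 95.4 ± 3.96 (SD, n = 3) in the mice labelled Lrp5-/- and 54.1 ± 6.57 (SD, n = 3) in WT mice, so it was higher in the mice labelled as lacking the gene, and 3 other probes of Lrp5 were detected on no array. The place of ILMN_2942097 relative to the deletion was not given in the sources used here, so the retinas are named by their labels and each difference is that of the retinas labelled Lrp5-/- minus WT. WT replicate 1 stood apart, with 18167 detected probes against 20286 to 21388 on the other arrays and a mean signal before normalization of 199.97 against 304 to 431. The long RNA Xist, made from the inactive X chromosome of female cells, was detected on 2 arrays of each group (replicates 1 and 3 labelled Lrp5-/-, WT replicates 1 and 2) and undetected on the third of each. Marker genes of the retina were mostly expressed, with 9 of 10 rod genes, 6 of 6 bipolar cell genes and 7 of 7 Müller glia genes, each counted over the listed genes that had a probe.

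Arr3, which encodes the arrestin of cones, was lower on all 3 arrays labelled Lrp5-/- than on all 3 WT arrays, by both of its probes. The probe ILMN_2726271 had normalized signals of 331.8, 313.8 and 369.1 under the Lrp5-/- label against 498.2, 541.5 and 538.0 in WT. The groups did not overlap, and the highest retina labelled Lrp5-/- lay below WT replicate 1. The mean signal of that array was the lowest before normalization (199.97) and the highest after it (334). The means were 338 ± 28.2 (SD, n = 3) and 526 ± 24.1 (SD, n = 3), a log2 difference of -0.64 (standard error 0.095) or a fold of 1.56. The probe ILMN_2717844 had 266.7, 272.7 and 345.1 against 444.1, 427.6 and 531.6, which again left a gap between the groups. Its log2 difference was -0.67 (standard error 0.12), a fold of 1.59, and over the 6 arrays the probes had a Pearson r of 0.95 with each other, as repeat readings of the same RNA. In whole-retina RNA, fewer cones and less Arr3 mRNA per cone cannot be told apart.

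In the limma fit across all 20721 expressed probes, 1 of the 12 cone probes passed an adjusted p of 0.05, the Arr3 probe ILMN_2726271, which was lower; this was so for 0.116% of all expressed probes in either direction and for 0.0869% as lower. Nothing is read from that count, because Arr3 was chosen for its difference. Both Arr3 probes, and none of the 10 others, had all 3 mice of one group beyond all 3 of the other, as had 10.7% of all expressed probes (4.96% with the retinas labelled Lrp5-/- below and 5.74% with them above). The log2 difference of ILMN_2726271 was matched or exceeded downward by 42 expressed probes, itself included, and that of ILMN_2717844 by 35. As higher, 0 cone probes passed, against 0.029% of all. At the threshold of the study's methods, an unadjusted p under 0.05 with a fold of at least 1.3, both Arr3 probes were past it as lower, against 0.569% of all expressed probes as lower and 0.83% in either direction.

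The call on Arr3 did not hold under most other settings, while its direction held in those run. With the groups apart, only a change of normalization could have reversed that direction. Dropping WT replicate 1 kept the call. Dropping any of the 5 other arrays left 0 cone probes past the threshold, as did the replicate number as a block. The log2 differences of the Arr3 probes ran from -0.79 to -0.45 over the processing alternatives. Their separation also needs the normalization. Before it, ILMN_2726271 had 342.6, 320.9 and 364.2 under the Lrp5-/- label against 288.5, 800.0 and 523.1 in WT, and there the dim WT replicate 1 was the lowest array and the groups overlapped. The smallest difference, -0.45, came from scaling each array to its median over all probes, which also moved the median log2 difference of all expressed probes to 0.12 and left 0 of them past the threshold in either direction.

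**Figure D1:**
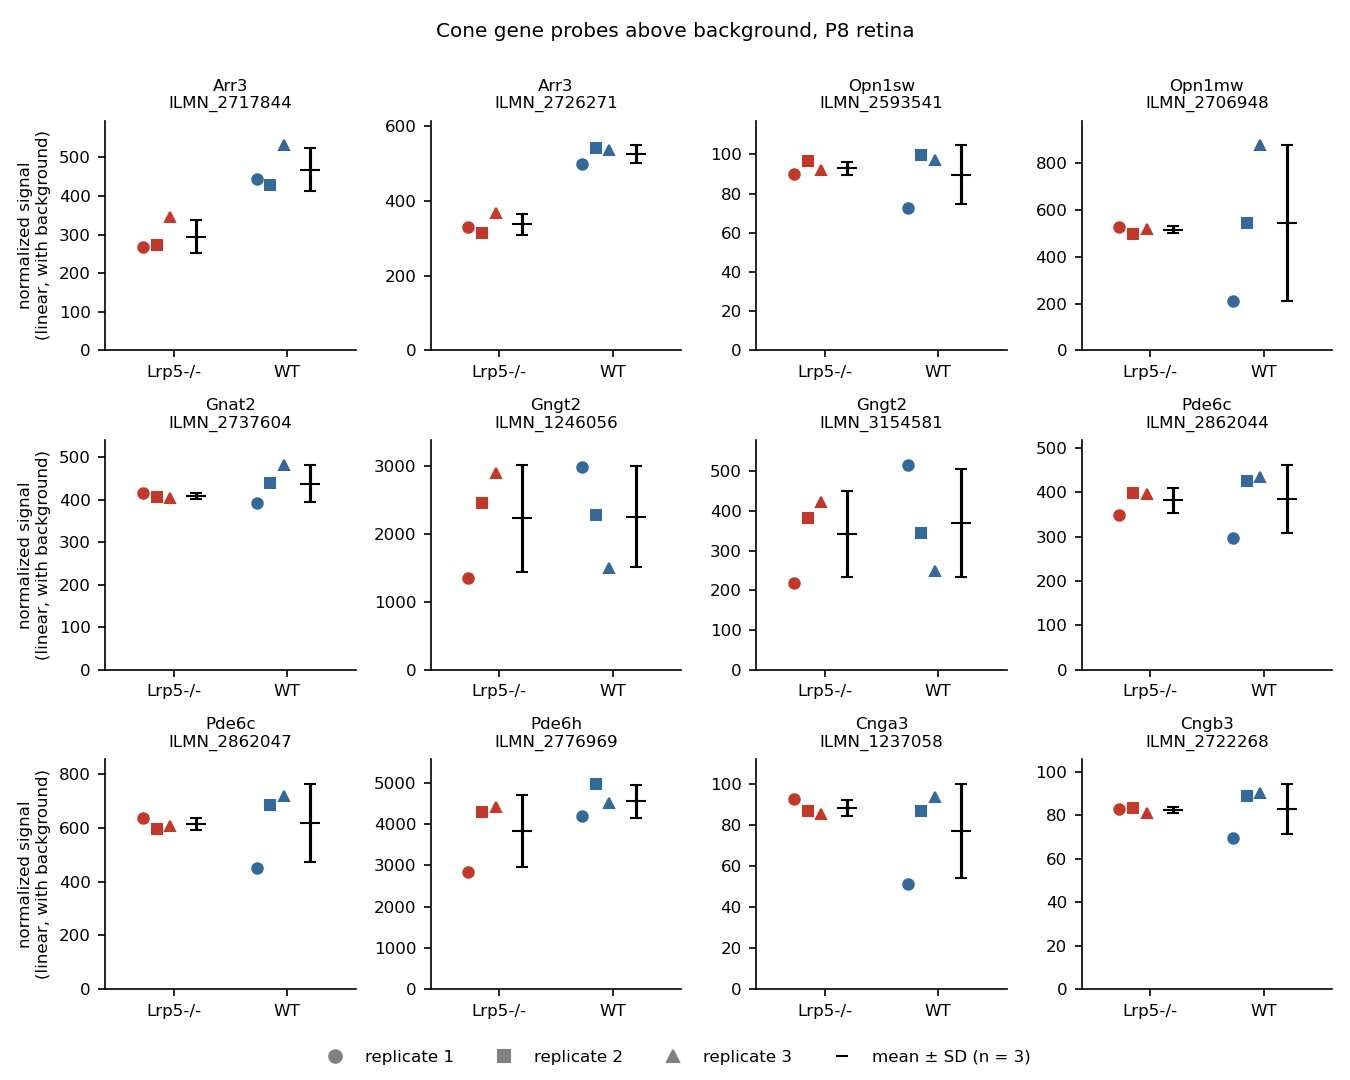
Normalized signal (linear, background included) of each of the 12 expressed cone gene probes, with 1 point per mouse and the mean ± SD of each group of 3 beside it; each panel has its own axis from 0. For Arr3 the retinas labelled Lrp5-/- (266.7 to 369.1 over both probes) lie below the WT retinas (427.6 to 541.5), and in the other panels the groups overlap.

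Arr3 is X-linked, and its difference is also given with and without Xist, as a description. Every array labelled Lrp5-/- lay below every WT array for both probes, so any split of the arrays had to show Arr3 lower. These values therefore do not test an effect of sex. Over the 4 arrays with Xist, 2 a group, the log2 difference of ILMN_2726271 was -0.57 and that of ILMN_2717844 was -0.52. Between the 2 arrays without Xist, 1 a group, they were -0.78 and -0.96. With Xist as a covariate in the fit, an alternative chosen after seeing the data, 0 cone probes passed the threshold. The log2 difference of ILMN_2726271 was -0.64 there too, which the balance of the arrays with Xist fixes.

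The signal of Arr3 was also set against other cone transcripts on the same array, as a description. These ratios reuse the Arr3 values by which the group was chosen, so they add no support. The ratio of Arr3 (ILMN_2726271) to Gnat2, on the log2 scale and relative to the WT mean, came to -0.60, -0.64 and -0.39 for the mice labelled Lrp5-/- and to 0.08, 0.03 and -0.11 for WT mice. The groups stayed apart, as they did against the mean of the 8 other expressed cone genes (-0.56, -0.80 and -0.59 against 0.23, -0.10 and -0.14). A ratio of this kind shows unequal change of the numerator and denominator and not which of them changed.

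The opsins did not pass the test, and Opn1mw was the most variable of the cone genes between WT mice. Opn1mw (ILMN_2706948), the middle-wavelength opsin, had signals of 527.7, 498.4 and 516.5 under the Lrp5-/- label against 210.8, 543.0 and 876.1 in WT. The WT mice thus spanned a 4.16-fold range, and all 3 retinas labelled Lrp5-/- fell inside it. The means were 514 ± 14.8 and 543 ± 333 (SD, n = 3 each), and the log2 difference of 0.15 (standard error 0.37) turned to -0.42 without WT replicate 1 and rose to 0.60 without WT replicate 3. With Xist the log2 difference was 0.63 and without it -0.81, from 2 and 1 arrays a group. Opn1sw (ILMN_2593541), the short-wavelength opsin, had 89.9, 96.7 and 91.8 against 72.4, 99.5 and 97.1, close to background on every array. Undetected probes had a median signal of 46.9 to 49.2, so a change of Opn1sw mRNA is understated here. Its log2 difference was 0.06 (standard error 0.12), and -0.08 without WT replicate 1. The gene overlaps Calu in the annotation.

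The transducin subunits of cones overlapped between the groups. Gnat2 (ILMN_2737604), the alpha subunit, was the steadiest of the cone probes, with 416.4, 407.2 and 403.2 under the Lrp5-/- label against 392.7, 439.8 and 481.9 in WT retinas. Its highest array was 1.23-fold its lowest, and the log2 difference was -0.09 (standard error 0.10). Gngt2, the gamma subunit, differed more within the groups than between them. Its probe ILMN_1246056 had 1358, 2451 and 2893 under the Lrp5-/- label against 2984, 2284 and 1503 in WT, so replicate 1 labelled Lrp5-/- and WT replicate 3 were low. The probe ILMN_3154581, annotated to another transcript of Gngt2, had 217.5, 382.3 and 422.0 against 516.2, 344.8 and 248.3, with a Pearson r of 0.98 to the first over the 6 arrays. The log2 differences were -0.03 (standard error 0.28) and -0.11 (standard error 0.27), and both turned positive without replicate 1 labelled Lrp5-/- (0.29 and 0.18) or without WT replicate 1 (0.20 and 0.16). Gngt2 overlaps Abi3 in the annotation, whose expressed probe (ILMN_1223041) had 151.6, 153.3 and 140.1 against 191.1, 133.3 and 166.1, a narrower range than that of Gngt2.

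Phosphodiesterase 6 of cones consists of the catalytic subunit Pde6c and the inhibitory subunit Pde6h. Pde6c (ILMN_2862047) had 638.3, 595.9 and 607.8 under the Lrp5-/- label against 452.6, 684.3 and 719.2 in WT, a log2 difference of 0.02 (standard error 0.15). Its second expressed probe (ILMN_2862044) had 349.0, 398.6 and 396.8 against 296.8, 426.0 and 433.3, a log2 difference of 0.00 (standard error 0.14). WT replicate 1 was the lowest array for both, and without it the log2 differences were -0.19 and -0.17. Pde6c lies on chromosome 19, as does Lrp5. Pde6h (ILMN_2776969) had 2834, 4282 and 4404 against 4183, 4971 and 4501, and here replicate 1 labelled Lrp5-/- was low and the other retinas labelled Lrp5-/- fell within the WT range. The log2 difference of -0.27 (standard error 0.15) was the lowest after Arr3, and it was -0.06 without that array.

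The cyclic nucleotide-gated channel of cones is built from Cnga3 and Cngb3, and both lay near background. Cnga3 (ILMN_1237058) had 92.7, 87.0 and 85.7 under the Lrp5-/- label against 51.2, 86.9 and 93.9 in WT, where WT replicate 1 was not above background. Its log2 difference of 0.24 (standard error 0.19) was the highest of the cone genes and became -0.03 without that array. Cngb3 (ILMN_2722268) had 82.7, 83.5 and 81.1 against 69.4, 88.9 and 90.1, a log2 difference of 0.00 (standard error 0.11). The probe of Thrb was not above background on any array, with a highest signal of 57.1, so no fold is given for it.

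Over the 10 expressed probes other than those of Arr3, the log2 differences ran from -0.27 to 0.24, and none passed the limma fit (adjusted p from 0.987 to 0.999). With 1 probe per gene the median log2 difference of the 9 expressed cone genes was 0.004, with 4 below 0 and 5 above 0, beside a median of 0.0001 over all expressed probes. WT replicate 1 was the lowest of the 6 arrays for 7 of the 12 cone probes (58.3%), against 26.3% of all expressed probes, and replicate 1 labelled Lrp5-/- was the lowest for 4. The 7 were the probes of Opn1sw, Opn1mw, Gnat2, Pde6c, Cnga3 and Cngb3. The 5 other probes, of Arr3, Gngt2 and Pde6h, did not have their minimum there. Without WT replicate 1, 1 cone probe passed, that of Arr3 (ILMN_2726271, log2 difference -0.68), where 0.41% of all expressed probes passed.

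**Figure D2:**
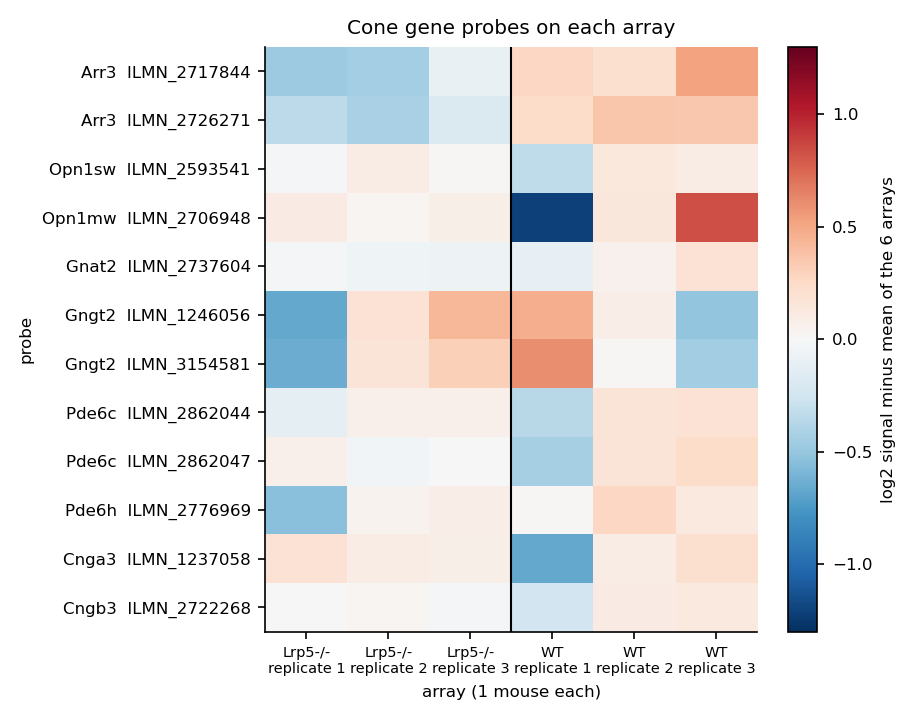
Each of the 12 expressed cone gene probes (rows) on each of the 6 arrays (columns), as log2 signal minus the mean of that probe over the 6 arrays; blue is below and red above that mean. The Arr3 rows split by genotype, WT replicate 1 is the lowest array for 7 probes, and replicate 1 labelled Lrp5-/- is the lowest for 4.

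Rod phototransduction uses a parallel set of proteins, and 9 of 10 rod genes analysed here had an expressed probe. Gngt1 was not above background. None of their 12 expressed probes passed the limma fit, and with 1 probe per gene the median log2 difference was -0.08, with 7 genes below 0 and 2 above 0. Sag, the rod arrestin, had a log2 difference of -0.05 (standard error 0.11) at its brighter probe (ILMN_2730436), where the groups overlapped. Its dimmer probe (ILMN_1232031) read 3586, 3609 and 2954 in WT retinas and 2719, 2551 and 2595 in those labelled Lrp5-/-, which left the groups apart. The log2 difference there was -0.36 (standard error 0.10), and it did not pass (adjusted p = 0.618 from limma). Of all expressed probes, 4.96% had the retinas labelled Lrp5-/- below without overlap. The probes of Sag thus gave different values, while those of Arr3 gave similar ones.

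Some rod genes varied between WT mice in the same order as Opn1mw, as did some genes of other lists. Gnat1 (ILMN_2765547), the rod transducin alpha subunit, had 3556, 8234 and 12679 in WT replicates 1 to 3 and 6592, 5982 and 6113 in the retinas labelled Lrp5-/-. Slc24a1, the sodium, calcium and potassium exchanger of rod outer segments, had 309.5, 808.6 and 1062 in WT retinas and 538.7, 579.5 and 544.7 in the retinas labelled Lrp5-/-. Pde6a, a catalytic subunit of rod phosphodiesterase, had 565.5, 1157 and 1405 in WT retinas and 664.4, 773.8 and 666.2 in those labelled Lrp5-/-. In each of these genes WT replicate 1 was the lowest array and WT replicate 3 the highest, as for Opn1mw. The order was not particular to rod genes. The bipolar cell gene Pcp2 had it too (570.8, 1473 and 1693.5 in WT retinas), while the bipolar cell gene Isl1 did not (7801.5, 7399.8 and 7617.3). Over the 6 arrays Opn1mw had a Pearson r of 0.95 with Gnat1, 0.94 with Slc24a1, 0.77 with Pde6a and -0.01 with Arr3 (ILMN_2726271). Among other cone genes r was 0.96 and 0.89 with Pde6c, 0.95 with Cngb3, 0.93 with Cnga3, 0.89 with Opn1sw and 0.80 with Gnat2. It was 0.08 with Pde6h and -0.64 and -0.73 with Gngt2. These r are a description of normalized signals over 6 arrays. WT replicate 1, the lowest for Opn1mw and these rod genes, had the highest mean normalized signal (334 against 298 to 318). The calls on these rod genes turned on WT replicate 1: without it Pde6a (log2 difference -0.87, adjusted p = 0.00613 from limma), Slc24a1 (-0.74, adjusted p = 0.0192) and the dimmer Gnat1 probe ILMN_1260029 (-0.71, adjusted p = 0.0376) passed as lower, and with all arrays none did. The brighter Gnat1 probe ILMN_2765547 had a log2 difference of -0.72 without WT replicate 1 and did not pass (adjusted p = 0.0927 from limma). The dimmer one lay near background, with 46.1 to 140.2 over the arrays. Of all expressed probes, 0.41% passed without WT replicate 1 and 0.116% with all arrays. The differences with all arrays were -0.47 for Pde6a, -0.21 for Slc24a1 and -0.25 for the dimmer Gnat1 probe.

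**Figure D3:**
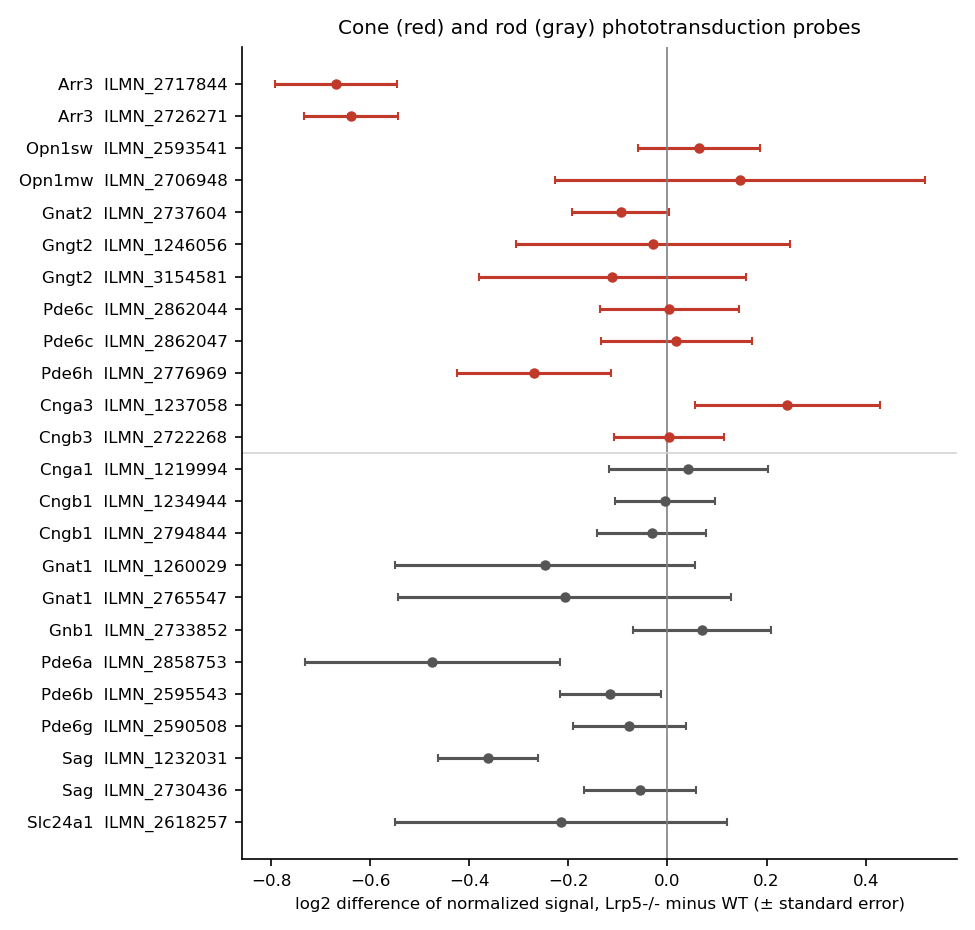
Log2 difference of normalized signal, retinas labelled Lrp5-/- minus WT, with the standard error from limma, for the 12 expressed cone probes (red) and the 12 expressed rod probes (gray). The Arr3 probes lie at -0.67 and -0.64, the other cone probes between -0.27 and 0.24, and the standard errors of Opn1mw, Gnat1 and Slc24a1 are wide.

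Genes that cones share with rods or that act around phototransduction gave no call. Of 20 such genes 18 had an expressed probe, none of the 26 probes passed, and the median log2 difference was -0.04. Gnb3, the transducin beta subunit of cones, had 3807, 3815 and 3756 under the Lrp5-/- label against 3827, 3451 and 3886 in WT, a log2 difference of 0.03 (standard error 0.09). Grk1, the opsin kinase that acts before arrestin in mouse rods and cones, had 182.7, 189.4 and 183.8 against 143.0, 153.3 and 156.2. Its groups did not overlap, with a log2 difference of 0.30 (standard error 0.09, adjusted p = 0.672 from limma). Of all expressed probes, 5.74% had the retinas labelled Lrp5-/- above without overlap and 4.96% had them below. Rbp3 of this list and the dimmer Cacna1f probe had them below. Their log2 differences were -0.19 and -0.21 (adjusted p = 0.987 from limma for each). Rgs9, which speeds the shut-off of transducin, had a log2 difference of -0.27 at its brighter probe (ILMN_1216553, adjusted p = 0.987 from limma) and 0.01 at its dimmer one (ILMN_1250689). The synaptic calcium channel subunit Cacna1f had -0.25 at its brighter probe (ILMN_2745383, adjusted p = 0.987 from limma) and -0.21 at its dimmer one (ILMN_2657593).

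Regulators of photoreceptor fate and opsin choice gave no call either. Of 14 listed genes with a probe 13 had an expressed probe, none of the 19 probes passed, and the median log2 difference was -0.05. Crx, the homeodomain factor of both photoreceptor types, had a log2 difference of -0.03 (standard error 0.10), and Otx2, which acts before it, one of 0.03 (standard error 0.15). Rxrg, a retinoid receptor of cones that partners with the thyroid hormone receptor, had 103.7, 135.5 and 129.6 under the Lrp5-/- label against 160.3, 157.2 and 131.1 in WT, a log2 difference of -0.29 (standard error 0.12, adjusted p = 0.987) with groups that overlapped. Of 12 genes of the thyroid hormone axis with a probe, 9 had an expressed probe and none of 11 probes passed, with a median log2 difference of 0.00. Klf9, a gene that thyroid hormone induces, had 3890, 3771 and 4013 against 2508, 3187 and 3654, without overlap. Its log2 difference was 0.34 (standard error 0.13, adjusted p = 0.941 from limma). Of all expressed probes, 5.74% had the retinas labelled Lrp5-/- above without overlap. Klf9 lies on chromosome 19, as do Pde6c and Lrp5.

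The genes whose pattern over the 6 arrays was most like that of Arr3 (ILMN_2726271), by Pearson r of log2 signal among all expressed probes with a symbol, were Chrnb1 (0.998), Gpr84 (0.988), Foxq1 (0.984), Slc38a5 (0.984) and Cdt1 (0.984). All 5 shared the split by genotype. Foxq1, a forkhead transcription factor, was detected on the WT arrays only, with 105.3, 118.9 and 122.8 there and 46.8, 46.7 and 49.1 on the others. For Chrnb1, a muscle-type acetylcholine receptor subunit, the signals labelled Lrp5-/- of 120.9, 117.7 and 127.5 lay below the WT signals of 154.5, 165.9 and 165.2. With 6 arrays in 2 groups, such an r mostly restates the difference between the groups.

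Markers of other cells in the dissected tissue were set beside Arr3. The 7 expressed of 8 endothelial genes, Cldn5 among them, had a summed signal of 571 to 644 under the Lrp5-/- label against 1217 to 1400 in WT, with Tie1 not above background; Cldn5, a tight junction protein of endothelium, was the 1 probe of this list past the limma threshold, and it was lower. Most of the gap between those sums was Cldn5, with 74.8, 86.2 and 70.9 under the Lrp5-/- label against 674.6, 613.7 and 791.5 in WT. Without it the 6 other genes summed to 500.2 to 563 against 568 to 609, a median log2 difference of -0.19 with 5 genes below 0, and Emcn, a sialomucin of endothelium, was above 0 (0.25, adjusted p = 0.982 from limma). The 6 expressed of 10 pigment epithelium genes had summed signals of 899 to 1668 against 1073 to 2288, with Rpe65, Tyr, Mlana and Lrat not above background. Their median log2 difference was -0.51, with 5 genes below 0 and 1 above 0, and none passed the test. Otx1, a homeodomain factor, was the 1 gene of these 6 whose groups did not overlap (90.6, 76.8 and 104.8 against 238.6, 153.4 and 133.0). Its log2 difference was -0.91 (adjusted p = 0.171 from limma). Of all expressed probes, 4.96% had the retinas labelled Lrp5-/- below without overlap. The 8 expressed of 11 lens genes with a probe had 528 to 2082 against 515 to 1733, with a median log2 difference of 0.26, and the 9 expressed rod genes 54037 to 58060 against 53301 to 71781. Of these sums, that of the endothelial genes did not overlap between the groups, with a narrow gap once Cldn5 was left out, and those of pigment epithelium, lens and rod genes overlapped. Their part in the Arr3 difference was not tested.

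**Figure D4:**
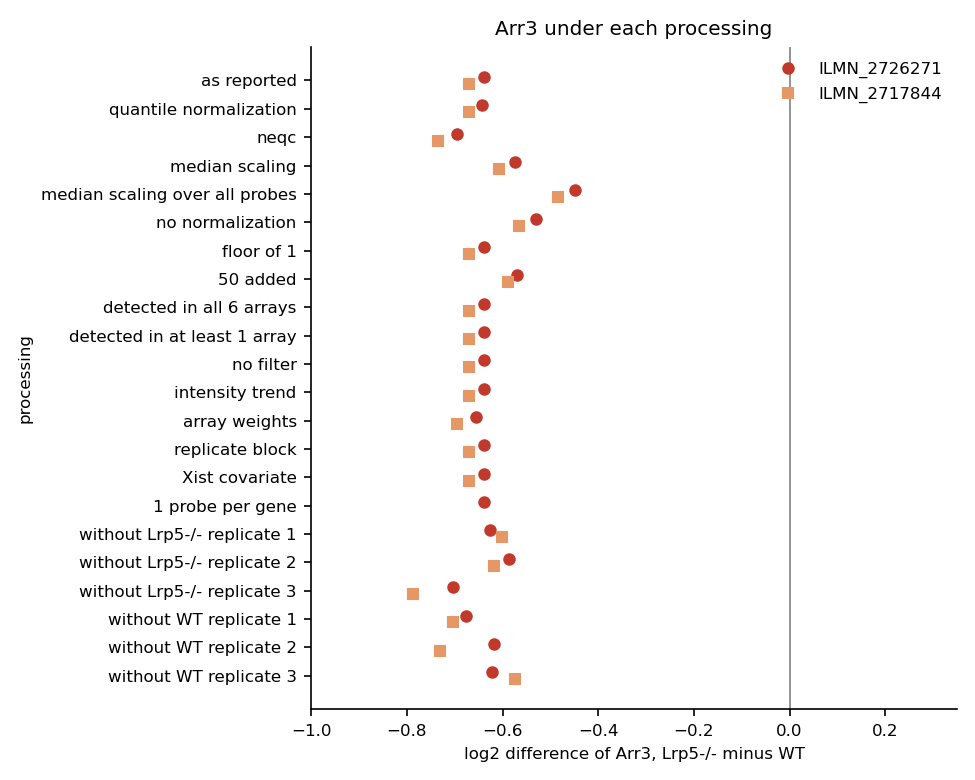
Log2 difference of the 2 Arr3 probes, retinas labelled Lrp5-/- minus WT, under the reported processing and each alternative (rows). Both probes stay below 0 in the settings drawn, between -0.79 and -0.45. With the groups apart, only a change of normalization could have altered that sign.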

How the data were processed

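Total RNA of 3 retinas labelled Lrp5-/- and 3 WT retinas was hybridized to Illumina Mouse-WG6 BeadChips. The authors processed the scans in Bead Studio, where background was analysed and arrays were brought together by rank invariant normalization. The deposited intensity of each probe is linear, and a table before normalization was also used. Each probe's deposited detection p-value is equal in both (0 differ), and the series table equals the normalized one (0 cells differ). Array intensity over background and 3 arrays a group limit the precision.

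Signals were floored at 16 (1 value) and put on a log2 scale. limma 3.58.1 (R 4.3.3) was fitted to every probe whose detection p was under 0.05 on 3 or more arrays, with a Benjamini-Hochberg adjustment over all 20721 of them, and adjusted p-values come from this fit. The fit was tested on simulated data. Gene names come from the platform annotation, where 34885 of 45281 probes have 1 symbol, 18 have several and 10378 are unnamed here. Where a gene had several expressed probes, the one with the highest mean log2 signal stood for it in medians.

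The members and gene lists were chosen with earlier results of these data known. The named genes are all members, their rod counterparts and the 5 genes most like Arr3. Up to 4 genes of each other pathway list with the smallest p are also named. Crx, Otx2, Gnb3, Abi3, Pcp2, Isl1, Xist and the Lrp5 probes were added after their values were seen. The alternatives were quantile normalization, neqc, scaling to the median of expressed probes, no normalization, a floor of 1, 50 added to each signal, 3 other detection filters, an intensity trend, array weights, the fold threshold of 1.3 with an unadjusted p of 0.05 from the methods (applied to limma, since SAM was not run), 1 probe for each gene, a block for the replicate number, each array left out, and a covariate for Xist. Median scaling was first run with the median over all 45281 probes; the version over expressed probes replaced it after that output had been seen, and both are given.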

Additional observations from a re-analysis of the deposited data

How the results depend on the processing

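Of 22 alternatives, 7 left 1 cone probe past the threshold, the Arr3 probe ILMN_2726271, 13 left 0 and 2 gave 2, both of Arr3. The count was 0 with neqc, either median scaling, no normalization, 50 added, no filter, the replicate block and the Xist covariate. It was 2 with array weights, where 74 of all expressed probes passed as lower and 24 as higher, against 18 and 6 as reported. At the methods' threshold it was also 2, where 118 of all expressed probes passed as lower and 54 as higher. With each array left out it ran from 0 to 1 for the cone probes and from 0 to 3 for the rod and other listed genes. Median scaling was run first over all probes, where 0 of all expressed probes passed as lower and 0 as higher with 170 at an unadjusted p under 0.05, and it moved the median log2 difference by 0.12. Scaling over expressed probes, where 9 passed as lower and 1 as higher, was chosen after that output was seen. The log2 difference of ILMN_2726271 was -0.45 with scaling over all probes and -0.53 with no normalization, against -0.64 as reported. Both Arr3 probes kept their direction in the alternatives run. Most of these could not have reversed it. The filters, the intensity trend, the replicate block and the Xist covariate leave the difference as it is. Leaving out an array cannot reverse it while the groups are apart. Deviations from the group mean over the expressed probes had r from -0.28 to -0.15 between same-numbered mice. Between differently numbered mice r ran from 0.00014 to 0.21. Deviations from a mean of 3 arrays are tied to each other, so these values cannot show whether the replicate numbers pair the samples. Under the replicate block the count of cone probes was 0, and over all expressed probes it was 11 lower and 2 higher, against 18 and 6.

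Of 206 values of the other 10 cone probes under the alternatives, 0 passed and 32 had the opposite sign. The floor of 1, the filters, the intensity trend, the replicate block, the Xist covariate and 1 probe per gene cannot change these differences. The share with the opposite sign therefore does not measure how stable the signs are. With array weights the log2 differences turned for Opn1sw (-0.032), Opn1mw (-0.32), Gngt2 (0.28 and 0.21), Pde6c (-0.11 and -0.14) and Cngb3 (-0.086). With median scaling over expressed probes they turned for Opn1sw (-0.034), Gngt2 (ILMN_1246056, 0.071) and Cngb3 (-0.099), and over all probes for Gnat2 (0.093) and Gngt2 (0.19 and 0.079). With no normalization they turned for Gnat2 (0.011), Gngt2 (ILMN_1246056, 0.11) and Cngb3 (-0.057), and with 50 added for Cngb3 (-0.00021). With each array left out, the range was -0.084 to 0.15 for Opn1sw, -0.42 to 0.60 for Opn1mw, -0.30 to 0.29 and -0.37 to 0.18 for Gngt2, -0.17 to 0.099 and -0.19 to 0.14 for Pde6c, -0.031 to 0.41 for Cnga3 and -0.12 to 0.070 for Cngb3. The cause was not tested. Opn1sw, Cnga3 and Cngb3 lie near background, which lowers their folds, and SAM with the delta of the methods was not run.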
